A study of Mus musculus with 12 samples.

Results

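Genes of the nuclear pore and of nuclear transport were followed across B cell activation and plasmablast differentiation in mouse RNA-Seq. The set held every gene of the count table whose symbol is Nup with a digit, Kpna, Kpnb, Xpo with a digit or Ipo with a digit, pseudogenes left out. This gave 40 of 27179 genes, of which 21 were nucleoporin genes and 19 were genes of transport receptors, the importins and exportins. Splenic B cells of young adult male C57BL/6 mice were profiled at 6 stages with 2 libraries each. Naive resting B cells were untreated and sorted from the spleen. The other cells had been isolated by negative selection and stimulated in culture with 25 µg/ml lipopolysaccharide (LPS), a bacterial activator of B cells. No cells cultured without LPS were profiled. In comparisons with naive cells, LPS therefore cannot be told apart from isolation and culture. Activated cells that had not divided, by a dye that each division dilutes, were sorted 3, 10 and 33 h after LPS. Expanded B cells, which were CD22+ and CD138-, and the antibody-secreting plasmablasts, which were CD22- and CD138+, were both sorted on day 4 from cultures started at a lower cell density, so density and time cannot be told apart between 33 h and day 4. Stages were compared in their order, and naive cells were compared with plasmablasts.

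Nuclear pores are large protein channels through the nuclear envelope, and every protein or RNA that moves between nucleus and cytoplasm in bulk passes them. Their scaffold is made of outer rings of Y-shaped complexes and an inner ring, held by membrane proteins and lined by nucleoporins with phenylalanine-glycine repeats that form the barrier, with filaments on the cytoplasmic face and a basket on the nuclear face. Cargo with a classical import signal is bound by an importin alpha (the Kpna genes), which importin beta (Kpnb1) carries through the pore. Other importins and the exportins bind cargo themselves, and the small GTPase Ran sets the direction. Resting B cells are small cells with little cytoplasm, and after LPS they grow, divide and, in part, become secretory cells.

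Total counts per library ran from 23026619 to 60585587, and the genes of the set took 0.296% to 0.838% of them. Levels are given as RPKM (reads per kilobase of exon and per unit of library size, where library sizes were scaled with TMM, a factor that corrects for differences in composition), so that genes of different length can be compared. Marker genes of cell types were summed to describe the sorted populations. The B cell list held Cd22 and the plasmablast list held Sdc1, which encodes CD138. The day 4 cells were sorted on these proteins, so the sums are not an independent check of that sort. The summed level of 6 B cell genes was 6792 ± 89.7 RPKM (SD, n = 2) in naive cells and 2074 ± 8.67 RPKM in plasmablasts, and that of 4 plasmablast genes was 91.6 ± 3.31 and 10490 ± 153 RPKM. The B cell sum was already below the naive level at the stages between. Its means there were 3562 RPKM (3 h), 2360 (10 h), 2718 (33 h) and 2827 (expanded). Of genes that mark other cells, 5 myeloid genes summed to 112 ± 59.4 RPKM and 4 erythroid genes to 206 ± 44.6 RPKM in naive cells, against at most 9.54 and 1.46 RPKM in the means of the later stages. Over the 6 stage means, 5 T cell genes summed to between 0.665 and 9.9 RPKM, with the highest value in plasmablasts, and 3 NK cell genes to between 0.0162 and 3.54 RPKM, with the highest value in naive cells. The part of these cells in the comparisons with naive cells and plasmablasts was not tested. In bulk RNA, fewer cells that use a gene and less RNA per cell cannot be told apart.

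The members were lowest at both ends of the series. The nucleoporin genes together stood at 412 ± 0.134 RPKM in naive cells and at 867 ± 11.7 RPKM at 3 h (mean ± SD, n = 2). Later means were 666 ± 20.9 RPKM (10 h), 884 ± 43.7 (33 h), 704 ± 4.68 (expanded) and 451 ± 0.386 (plasmablast). The transport receptors gave 417 ± 10.1 RPKM (naive), 940 ± 0.643 (3 h), 864 ± 20.4 (10 h), 995 ± 76.4 (33 h), 759 ± 5.34 (expanded) and 494 ± 0.965 (plasmablast). The dip of the nucleoporins at 10 h was largely 1 gene and depends on the scaling. Without Nup62, which measured 259 and 244 RPKM at 3 h and 74.4 and 74.0 RPKM at 10 h, they summed to 616 ± 0.493 and 592 ± 20.6 RPKM at these times, an alternative chosen after seeing the data. On library size alone their means at 3 h and 10 h were 686 and 669 RPKM, and those of the receptors were 743 and 869 RPKM. Receptors and nucleoporins were close to even in naive cells, with ratios of their summed RPKM of 0.994 and 1.03 in the 2 libraries, and the ratio was 1.29 and 1.31 in the 10 h libraries. It lay between 1.07 and 1.15 in the libraries of all other stages. Without Nup62 the highest ratios were those of the 3 h libraries, at 1.53 and 1.53, followed by 1.45 and 1.47 at 10 h and 1.12 to 1.33 in the other libraries, so the place of the 10 h libraries as the highest rests on this gene.

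Of the 40 members, 38 were among the 12750 genes tested. Kpna7, an importin alpha known from oocytes and early embryos, had 0 counts in each of the 12 libraries, which allows at most 3 counts in any of them. Nup62cl, an X-linked relative of Nup62, was removed with the other genes of the sex chromosomes. Its replicates had 0 and 1 counts (3 h), 2 and 6 (expanded), 2 and 4 (plasmablast) and 0 in the other 6 libraries. Nup210l, a relative of Nup210 known from testis, was tested but barely present. Its counts in replicates 1 and 2 were 21 and 14 (naive), 12 and 11 (3 h), 19 and 9 (10 h), 29 and 15 (33 h), 25 and 23 (expanded) and 4 and 9 (plasmablast).

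The 38 tested members differed in the stage of their highest mean level. The mean was highest at 33 h in 17 members (9 nucleoporins and 8 receptors), at 3 h in 12 (7 and 5), in expanded B cells in 6 (4 and 2) and at 10 h in 3 receptors. It was highest in naive cells in 0 members and in plasmablasts in 0 members. Over all genes tested the shares with their highest mean in each stage were 22.6% (naive), 23.9% (3 h), 11.1% (10 h), 9.56% (33 h), 9.5% (expanded) and 23.3% (plasmablast). The lowest mean was that of naive cells in 25 of the 38 members, of plasmablasts in 12 and of 3 h in 1, Nup210. Over all genes tested the shares with their lowest mean in these stages were 22.6% (naive), 23.4% (plasmablast) and 25.8% (3 h). Both libraries of the highest stage lay above the 10 other libraries in 10 of the 12 members with a peak at 3 h. The same held in 15 of the 17 with a peak at 33 h, 2 of the 3 at 10 h and 0 of the 6 in expanded B cells. That stage was picked as the highest from these same libraries, and the matching share over all genes tested was not computed.

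**Figure D1:**
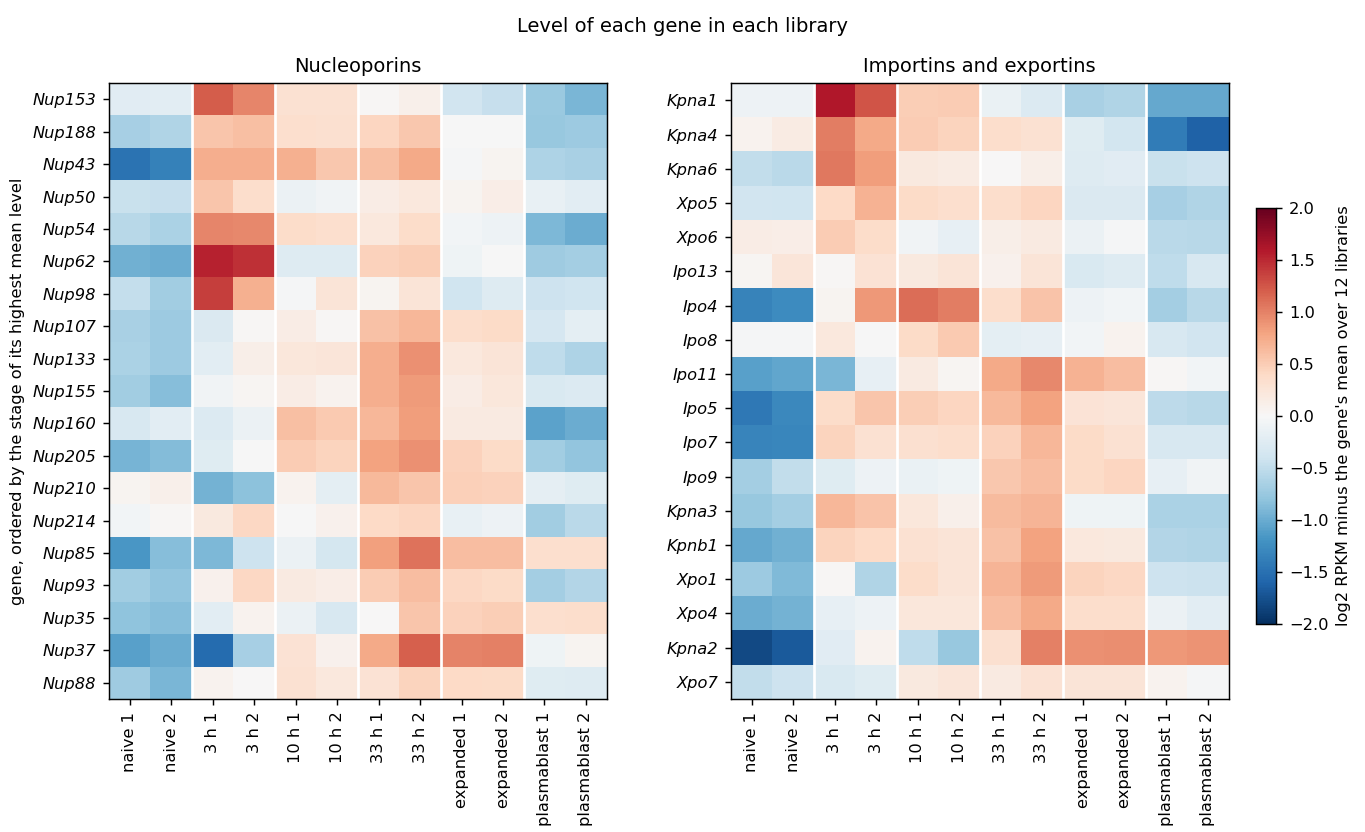
Heatmap of log2 RPKM minus the gene's own mean over the 12 libraries, for 37 tested members (Nup210l is left out), with libraries in columns in the order of the stages and genes in rows, ordered by the stage of the highest mean. Most rows run from blue in the naive columns to red at 3 h or 33 h and back to blue in plasmablasts, with Kpna2, Nup85 and Nup35 as rows that stay red to the end.

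Within 3 h of LPS most of the set rose. By edgeR's glmTreat, which asks for a fold change beyond 1.5 at a Benjamini-Hochberg adjusted p of 0.05 over all genes tested, 22 members rose and 1 fell out of 38, where 21.0% of all genes tested rose and 24.3% fell (45.3% in all). Of the nucleoporins 11 rose and 1 fell out of 20, and of the transport receptors 11 rose and 0 fell out of 18. The median log2 fold change was 0.78 in nucleoporins and 0.89 in receptors, against -0.03 over all genes tested. With the F-test of edgeR, which has no fold-change threshold, 30 members rose and 1 fell (34.7% and 36.3% of all genes).

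The largest rise was that of Nup62, a nucleoporin with phenylalanine-glycine repeats in the central channel. Its values in replicates 1 and 2, with the stage in parentheses, were 45.8 and 44.7 RPKM (naive), 259 and 244 (3 h), 74.4 and 74.0 (10 h), 122 and 125 (33 h), 83.3 and 88.4 (expanded) and 54.1 and 55.7 (plasmablast). The 3 h libraries lay far above the other 10 and did not overlap them, and the rise from naive cells was 5.56-fold (log2 fold change 2.47 ± 0.08 SE, adjusted p = 3.1e-10). Its channel partner Nup54 rose 2.95-fold (1.56 ± 0.09, adjusted p = 1.8e-07). Nup62 shares 88 of its 2722 exon bases with Il4i1 on the same strand and 82 with Atf5 on the opposite strand. Reads from these stretches cannot be told apart between the genes, with Atf5 because the kit does not mark strand. Il4i1 was at 7.04 and 6.88 RPKM in naive cells and 87.8 and 73.8 RPKM at 3 h. Atf5 was at 4.861 and 4.455 RPKM in naive cells, 34.43 and 20.96 RPKM at 3 h and 34.34 and 36.76 RPKM in plasmablasts. The part of these genes in the Nup62 value was not tested.

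Among the other nucleoporins, those of the nuclear basket and Nup98 rose together. Nup98, a mobile nucleoporin whose gene also encodes the scaffold protein Nup96, measured 18.9 and 16.3 RPKM (naive), 68.7 and 43.0 (3 h), 25.8 and 31.4 (10 h), 27.2 and 31.4 (33 h), 19.97 and 21.9 (expanded) and 19.8 and 19.98 (plasmablast). Its 3 h libraries differed by 1.6-fold but both lay above the rest, and the rise was 3.17-fold (log2 fold change 1.66 ± 0.19 SE, adjusted p = 6.8e-05). Nup153, which anchors the basket, measured 30.8 and 31.1 RPKM (naive), 83.5 and 70.8 (3 h), 44.4 and 44.5 (10 h), 36.7 and 38.5 (33 h), 27.7 and 26.0 (expanded) and 21.5 and 19.2 (plasmablast). It rose 2.5-fold (1.32 ± 0.09, adjusted p = 2.0e-06), and Nup50, a basket protein that helps to release cargo from importin alpha, rose 1.88-fold (0.91 ± 0.09).

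The scaffold was less uniform. All 5 inner ring genes tested lay above 0 and 4 rose, from Nup155 at a log2 fold change of 0.76 to Nup188 at 1.21, with Nup93 at 1.002. Nup35, the least abundant inner ring gene, had 0.78 and was not called (adjusted p = 0.12). Of the 6 Y complex genes of the set only Nup43 was called. The Nup98 gene, which also encodes the scaffold protein Nup96 and rose, was classed apart from them. Nup43, a peripheral subunit, measured 9.94 and 10.8 RPKM (naive), 45.8 and 45.7 (3 h), 45.5 and 40.1 (10 h), 41.9 and 46.8 (33 h), 27.2 and 28.8 (expanded) and 17.9 and 17.6 (plasmablast). It rose 4.41-fold (2.14 ± 0.11, adjusted p = 1.4e-08) and held that level through 33 h, while the other 5 genes of the complex had values between 0.04 (Nup37) and 0.65 (Nup133).

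The cytoplasmic side held 2 genes of the set, Nup88 and Nup214, and the membrane ring held 1, Nup210, so the directions given are those of single genes. Nup214 had a log2 fold change of 0.32 and was called up by the F-test alone. Nup88, a subunit on the cytoplasmic face that binds Nup214, measured 26.3 and 23.0 RPKM (naive), 45.6 and 43.6 (3 h), 53.6 and 50.2 (10 h), 52.7 and 58.9 (33 h), 56.9 and 56.5 (expanded) and 36.6 and 36.2 (plasmablast), and it rose 1.81-fold by 3 h. Nup210, a transmembrane nucleoporin of the membrane ring, was the 1 member that fell. It measured 76.9 and 79.3 RPKM (naive), 38.1 and 41.7 (3 h), 77.6 and 64.3 (10 h), 115 and 108 (33 h), 103 and 101 (expanded) and 64.9 and 62.4 (plasmablast). The 3 h libraries were the lowest of the 12, and the level at 3 h was 1.96-fold below that of naive cells (log2 fold change -0.97 ± 0.09 SE, adjusted p = 0.00046), a fall that was called under every alternative run.

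The 5 importin alpha genes tested all rose by 3 h, from Kpna4 at 0.78 to Kpna2 at 1.67, with Kpna1 at 1.54, Kpna6 at 1.46 and Kpna3 at 1.33. Kpnb1, the shared partner of the importin alphas, rose 2.66-fold (log2 fold change 1.41 ± 0.08 SE, adjusted p = 2.2e-07), from 58.2 and 60.5 RPKM to 160 and 156 RPKM. Of the importins that bind cargo themselves, Ipo4, Ipo5 and Ipo7, known as carriers of ribosomal proteins and histones, rose by 1.82, 1.82 and 1.68 on the log2 scale. Ipo9 at 0.41 and Ipo11 at 0.58 were called by the F-test alone, and Ipo8, linked to Argonaute proteins, and Ipo13, which carries cargo both ways, were at 0.13 and 0.02. Ipo4 measured 15.02 and 15.8 RPKM (naive), 39.3 and 69.2 (3 h), 82.8 and 77.2 (10 h), 48.6 and 56.1 (33 h), 35.6 and 36.6 (expanded) and 23.7 and 25.9 (plasmablast). Its 3 h libraries differed by 1.76-fold, and both lay above the naive libraries without overlap. Ipo4 shares 60.1% of its exon bases with Gm49378, a gene model on the same strand without a row of its own here.

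Of the 5 exportins 2 rose and 0 fell, and the F-test called 4 up. Xpo5, the exporter of microRNA precursors, rose 1.93-fold and Xpo4 rose 1.79-fold. Xpo4, an exportin of the translation factor eIF5A, measured 8.21 and 8.40 RPKM (naive), 14.5 and 15.2 (3 h), 18.96 and 19.1 (10 h), 25.0 and 27.4 (33 h), 20.8 and 20.7 (expanded) and 15.01 and 14.0 (plasmablast). Xpo1, the main exporter of proteins with leucine-rich signals, had a log2 fold change of 0.55 (adjusted p = 0.51), with 34.6 and 22.4 RPKM in the 3 h libraries. Xpo6, an exporter of actin, had 0.29 and Xpo7 0.19.

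Of these 23 calls, 16 were kept under all of the alternatives run. Nup50, Nup88, Xpo4 and Xpo5 lost theirs on library size alone, which lowered the median of all genes by 0.21 and left 15 members up and 1 down. Kpna4 was not called without naive replicate 1 (0.74, edgeR adjusted p = 0.11) or 3 h replicate 1 (0.65, 0.22), Nup155 without naive replicate 2 (0.69, 0.14) or 3 h replicate 2 (0.68, 0.14), and Nup205 without naive replicate 1 (0.75, 0.077) or 3 h replicate 2 (0.63, 0.24).

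**Figure D2:**
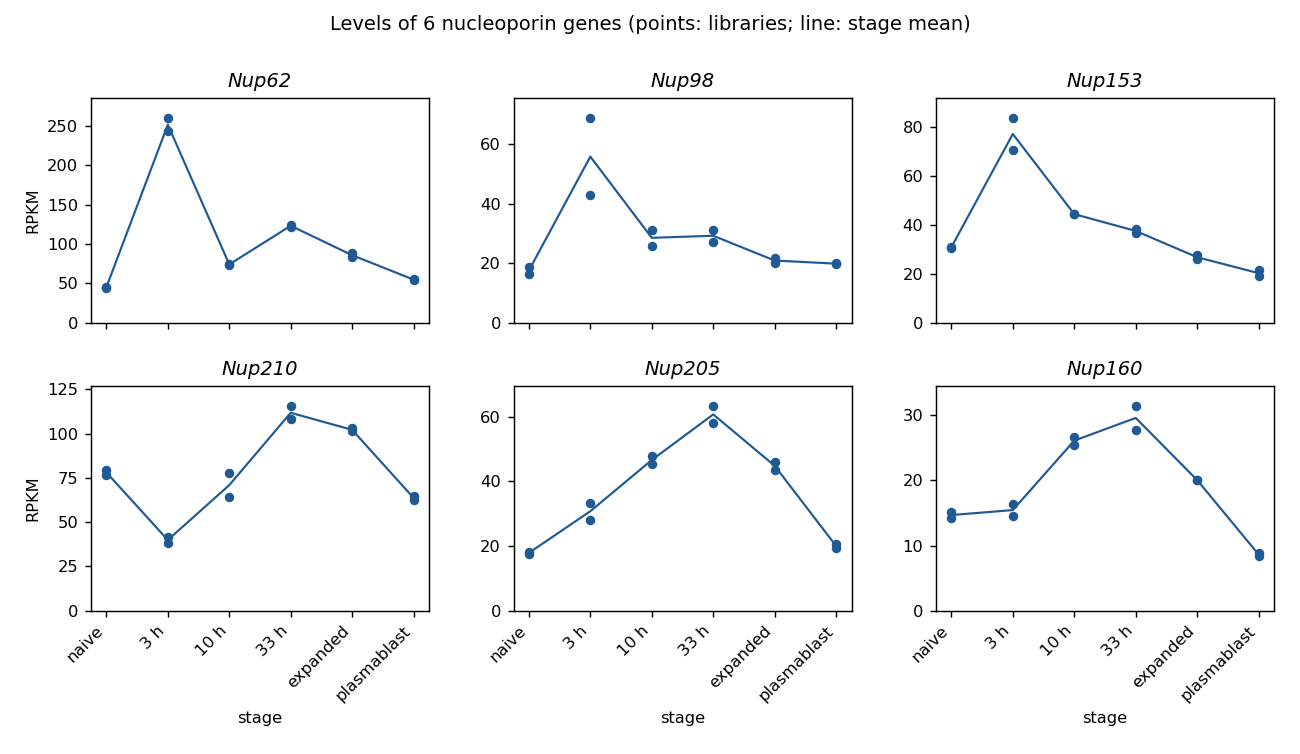
RPKM by stage for 6 nucleoporin genes, with points for the 2 libraries of a stage and a line through the stage means, each panel on its own axis from 0. Nup62, Nup98 and Nup153 have their highest points at 3 h, Nup210 has its lowest there, and Nup205 and Nup160 climb to 33 h and are back near or below the naive level in plasmablasts.

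Promoter sequence was examined for genes that moved together. RefSeq windows on GRCm38.p6 (mm10) were at hand for 31 of the 40 members, 29 of them tested, and the 250 bases before the start site were searched on both strands for 5 sets of letters. The E-box CACGTG, bound by Myc and related factors, was in 4 of 29 windows (13.8%) against 8.42% of 9919 promoters of genes tested, and the NRF1 box, the letters in capitals in the first 4 windows, was in 4 of 29 (13.8%) against 1.68%. The CCAAT box (CCAAT) was in 51.7% against 36.9%, the ETS box (CCGGAAG) in 17.2% against 14.3%, and the E2F box (TTTGGCGC) in 0 of 29 against 0.837%. The E-box and the NRF1 box read the same on either strand, and no window held both of these. The windows with the NRF1 box in capitals follow, 5′ to 3′, without bases that lie in exons of the GENCODE annotation. They belong to Nup62 (chr7:44815838-44816087, plus strand), Nup50 (chr15:84923178-84923410, plus strand), Nup107 (chr10:117792706-117792955, minus strand) and Xpo5 (chr17:46202646-46202781, plus strand). Distances are counted from the start site of each RefSeq window. The RefSeq gene bound of Nup107 (117792736) lies inside its window, so its last printed bases fall within that bound.
Nup62: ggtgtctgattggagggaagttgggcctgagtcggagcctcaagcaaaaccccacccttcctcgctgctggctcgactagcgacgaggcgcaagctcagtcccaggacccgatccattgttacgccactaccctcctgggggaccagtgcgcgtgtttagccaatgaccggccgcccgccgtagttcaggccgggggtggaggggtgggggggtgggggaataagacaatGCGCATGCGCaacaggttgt
Nup50: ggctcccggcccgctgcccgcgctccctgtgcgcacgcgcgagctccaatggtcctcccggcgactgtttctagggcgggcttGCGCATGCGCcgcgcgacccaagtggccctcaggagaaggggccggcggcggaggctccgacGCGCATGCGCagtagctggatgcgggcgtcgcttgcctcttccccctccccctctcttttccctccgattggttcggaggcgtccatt
Nup107: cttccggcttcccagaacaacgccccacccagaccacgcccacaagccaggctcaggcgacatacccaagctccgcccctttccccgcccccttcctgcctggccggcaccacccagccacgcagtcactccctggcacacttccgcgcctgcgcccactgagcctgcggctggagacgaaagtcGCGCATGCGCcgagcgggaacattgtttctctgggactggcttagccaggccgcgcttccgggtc
Xpo5: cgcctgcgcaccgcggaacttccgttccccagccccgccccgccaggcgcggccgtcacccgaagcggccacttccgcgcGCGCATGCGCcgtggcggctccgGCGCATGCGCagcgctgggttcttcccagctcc
The NRF1 box starts 20 bases before the start site in Nup62 and 65 bases before it in Nup107. Nup50 holds it 167 and 105 bases before the start site, and Xpo5 85 and 62 bases before it. Nup62, Nup50 and Xpo5 rose by 3 h, whereas Nup107, a Y complex subunit, had a log2 fold change of 0.56 and was not called (adjusted p = 0.51).

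The windows with the E-box CACGTG in capitals belong to Ipo7 (chr7:110018065-110018273, plus strand) and Nup54 (chr5:92435220-92435449, minus strand). They also belong to Nup93 (chr8:94214314-94214563, plus strand) and Nup188 (chr2:30286335-30286396, plus strand). These 4 genes rose by 3 h, as did 22 of the 38 members tested, and a link between the letters and the rise was not tested.
Ipo7: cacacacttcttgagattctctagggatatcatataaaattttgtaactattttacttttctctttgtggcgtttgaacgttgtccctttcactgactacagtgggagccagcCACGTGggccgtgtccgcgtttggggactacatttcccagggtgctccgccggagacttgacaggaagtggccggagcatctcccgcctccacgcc
Nup54: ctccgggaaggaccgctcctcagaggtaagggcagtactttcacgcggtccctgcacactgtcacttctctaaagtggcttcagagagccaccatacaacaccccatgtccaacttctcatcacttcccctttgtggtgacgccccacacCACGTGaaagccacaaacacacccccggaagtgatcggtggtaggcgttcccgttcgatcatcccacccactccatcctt
Nup93: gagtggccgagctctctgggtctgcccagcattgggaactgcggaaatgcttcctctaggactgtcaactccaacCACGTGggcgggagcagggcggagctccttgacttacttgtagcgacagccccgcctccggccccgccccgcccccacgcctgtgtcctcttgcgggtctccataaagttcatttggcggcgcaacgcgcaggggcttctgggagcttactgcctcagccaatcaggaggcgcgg
Nup188: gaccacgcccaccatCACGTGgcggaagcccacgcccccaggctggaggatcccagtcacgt
The RefSeq gene bound of Nup54 (92435259) also lies inside its window. The E-box starts 137, 100 and 175 bases before the start site in Ipo7, Nup54 and Nup93. Nup188 holds it 66 and 24 bases before the start site, and the second reaches into exon bases that are left out of the printed window. These matches describe the letters of the windows and are not measured binding sites.

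Between 3 and 10 h few members were called, and their share was no higher than over all genes in either direction. By glmTreat 3 members rose and 5 fell out of 38, where 17.4% of all genes tested rose and 13.4% fell (30.8% in all). Nup62 fell 3.39-fold (log2 fold change -1.76 ± 0.08 SE, adjusted p = 3.6e-08), Nup98 fell 1.95-fold (-0.96 ± 0.18, adjusted p = 0.027) and Nup153 fell 1.74-fold (-0.80 ± 0.09, adjusted p = 0.019). The importin alphas Kpna1 and Kpna6 fell 1.91-fold (-0.93 ± 0.10, adjusted p = 0.0028) and 1.7-fold (-0.77 ± 0.09, adjusted p = 0.03), and all 5 importin alphas were lower by the F-test, which called 11 members up and 13 down (32.1% and 30.2% of all genes). The 5 members that fell had each risen by 3 h, and both changes share the 3 h libraries. Of the 12 members with their highest mean at 3 h these were 5.

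The 3 that rose were Nup37, Nup210 and Nup160. Nup37, a peripheral Y complex subunit, rose 2.29-fold (1.196 ± 0.22, adjusted p = 0.0087), from 5.05 and 9.28 RPKM to 18.02 and 15.6 RPKM. Nup210 rose 1.78-fold (0.83 ± 0.09), back to near its naive level. Nup160, a core Y complex subunit, had been at 14.2 and 15.2 RPKM in naive cells and 14.6 and 16.3 at 3 h, and rose 1.69-fold to 26.7 and 25.5 RPKM (0.75 ± 0.09, adjusted p = 0.041).

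The calls for 6 of these 8 members depended on single libraries. Over the members, the SD of the log2 difference between replicates was 0.363 at 3 h and 0.061 to 0.161 at the other stages, and 6 of 38 members differed by more than 1.5-fold between the 3 h libraries. Without 3 h replicate 1, 3 members were called, without 10 h replicate 1, 2, and without 10 h replicate 2, 5. Without 3 h replicate 1, Nup98 had -0.59 (edgeR adjusted p = 0.53), Nup37 0.86 (0.069), Kpna6 -0.65 (0.25), Nup153 -0.67 (0.18), Nup160 0.68 (0.19) and Nup210 0.77 (0.059). Without 10 h replicate 1, Nup98 had -0.83 (edgeR adjusted p = 0.15), Nup37 1.09 (0.052), Kpna6 -0.78 (0.076), Nup153 -0.79 (0.064), Nup160 0.72 (0.15) and Nup210 0.69 (0.17). Without 10 h replicate 2, Kpna6 had -0.75 (edgeR adjusted p = 0.092), Nup153 -0.79 (0.057) and Nup160 0.79 (0.053). Nup62 was called under every alternative run, and Kpna1 lost its call on library size alone. That scaling raised the median of all genes by 0.33, turned the median of the members from -0.07 to 0.26 and gave 7 members up and 1 down.

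Between 10 and 33 h most members were slightly higher. By glmTreat 2 members rose and 0 fell out of 38, where 10.1% of all genes tested rose and 4.45% fell (14.5% in all). The F-test called 22 up and 4 down (23.2% and 22.2% of all genes), and the median log2 fold change was 0.40 in nucleoporins, 0.24 in receptors and -0.02 over all genes tested. Nup85, a core subunit of the Y complex, measured 14.0 and 17.3 RPKM (naive), 16.7 and 23.4 (3 h), 28.7 and 24.5 (10 h), 55.2 and 66.2 (33 h), 47.9 and 47.9 (expanded) and 39.3 and 39.3 (plasmablast). It rose 2.28-fold (1.19 ± 0.15, adjusted p = 0.002). Kpna2 rose 2.52-fold (1.33 ± 0.19, adjusted p = 0.0023), with 33 h libraries at 22.7 and 36.9 RPKM, and both calls held under every alternative run.

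The Y complex genes and the inner ring genes of the set, each summed, had their highest levels at 33 h. Nup98, whose gene also encodes the scaffold protein Nup96, is not in these sums and had a log2 fold change of 0.03. The Y complex genes summed to 158 ± 11.3 RPKM at 10 h and 231 ± 23.6 RPKM at 33 h, and the inner ring genes to 144 ± 3.42 and 184 ± 10.7 RPKM (mean ± SD, n = 2). All 6 Y complex genes and all 5 inner ring genes had a log2 fold change above 0, of which 4 and 4 passed the F-test. Nup205, a large inner ring scaffold protein, measured 17.4 and 18.3 RPKM (naive), 28.2 and 33.3 (3 h), 47.7 and 45.4 (10 h), 58.1 and 63.2 (33 h), 46.0 and 43.5 (expanded) and 20.6 and 19.4 (plasmablast). Its level was higher in both libraries at each step up to 33 h and lower at each step after it. The 4 members that were lower by the F-test were Ipo4, Ipo8, Kpna1 and Nup153. A list of 18 genes of G2 and mitosis moved at the same time, with 18 of 18 called up, a median of 4.24 and summed levels of 62.8 ± 5.86 and 989 ± 344 RPKM, and its part in these values was not tested.

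From 33 h to the expanded B cells of day 4, glmTreat called 0 members up and 0 down, where 6.94% of all genes tested rose and 3.66% fell (10.6% in all). At an unadjusted p under 0.05, 0 members were higher and 1 was lower, which was Kpna3 (log2 fold change -0.74, adjusted p = 0.087), and DESeq2 called 0. The F-test called 0 up and 20 down, where it called 18.5% of all genes up and 21.2% down, and 31 of 38 members had a value below 0. The median was -0.40 in the nucleoporins and -0.34 in the receptors, against -0.02 over all genes. The lowest values after Kpna3 were those of Xpo5 at -0.68, Nup43 at -0.66 and Kpna4 at -0.64. Kpna2, Nup35, Nup37, Nup88 and Xpo7 had a log2 fold change between 0.01 and 0.21, as did Ipo8, Nup210l had 0.48, and the summed G2 and mitosis genes measured 1458 ± 10.2 RPKM in expanded B cells.

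From expanded B cells to plasmablasts the whole set was lower. All 38 members tested had a log2 fold change below 0, and 0 rose and 10 fell by glmTreat, where 13.9% of all genes tested rose and 12.2% fell (26.1% in all). The F-test called 0 up and 32 down (27.2% and 29.7% of all genes). The median was -0.65 in nucleoporins, of which 7 of 20 fell, and -0.52 in receptors, of which 3 of 18 fell, against -0.05 over all genes tested.

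Of the Y complex genes 3 of 6 fell and of the inner ring genes 3 of 5, with medians of -0.73 and -0.74, and both central channel genes lay below 0 with a median of -0.76. Nup160 measured 20.01 and 20.1 RPKM in expanded B cells and 8.37 and 8.89 RPKM in plasmablasts, a 2.32-fold fall (log2 fold change -1.22 ± 0.09 SE, adjusted p = 1.9e-05), and had its lowest levels of all stages there. Nup205 fell 2.24-fold (-1.16 ± 0.09, adjusted p = 3.8e-05), Nup93 2.05-fold (-1.03 ± 0.10, adjusted p = 0.00059), Nup37 2.02-fold (-1.02 ± 0.21, adjusted p = 0.033), Nup133 1.73-fold (-0.79 ± 0.11, adjusted p = 0.046) and Nup188 1.67-fold (-0.74 ± 0.08, adjusted p = 0.037). The channel gene Nup54 fell 1.82-fold (-0.87 ± 0.09, adjusted p = 0.0055). Nup85 had -0.29 and Nup35 had -0.14, and Nup98 stood at -0.07.

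Among the receptors, Kpna4 fell 2.29-fold (log2 fold change -1.20 ± 0.11 SE, adjusted p = 7.4e-05), from 34.8 and 31.8 RPKM to 15.7 and 13.4 RPKM. Ipo5 fell 1.73-fold (-0.79 ± 0.09, adjusted p = 0.02) and Kpnb1 1.72-fold (-0.79 ± 0.08, adjusted p = 0.016). Xpo1 had -0.85 ± 0.15 and was not called (adjusted p = 0.056), and Kpna2 had -0.04 ± 0.18.

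Nup160, Nup205, Nup93 and Kpna4 were called under every alternative run. The other 6 lost their call without 1 or more single libraries, with 5 members called without expanded replicate 1 or without plasmablast replicate 1 and 4 without plasmablast replicate 2. Without plasmablast replicate 2, Nup54 had -0.80 (edgeR adjusted p = 0.071), Ipo5 -0.75 (0.13), Kpnb1 -0.75 (0.10), Nup133 -0.71 (0.25), Nup188 -0.73 (0.12) and Nup37 -1.06 (0.085). Without plasmablast replicate 1 the last 5 had -0.78 (edgeR adjusted p = 0.083), -0.77 (0.077), -0.82 (0.083), -0.69 (0.19) and -0.92 (0.16), and without expanded replicate 1 they had -0.78 (0.084), -0.78 (0.064), -0.82 (0.082), -0.74 (0.10) and -1.02 (0.088). Without expanded replicate 2, Nup133 had -0.77 (edgeR adjusted p = 0.13), Nup188 -0.74 (0.091) and Nup37 -1.02 (0.082). Library size alone lowered the median of all genes by 0.34 and gave 0 members up and 26 down.

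**Figure D3:**
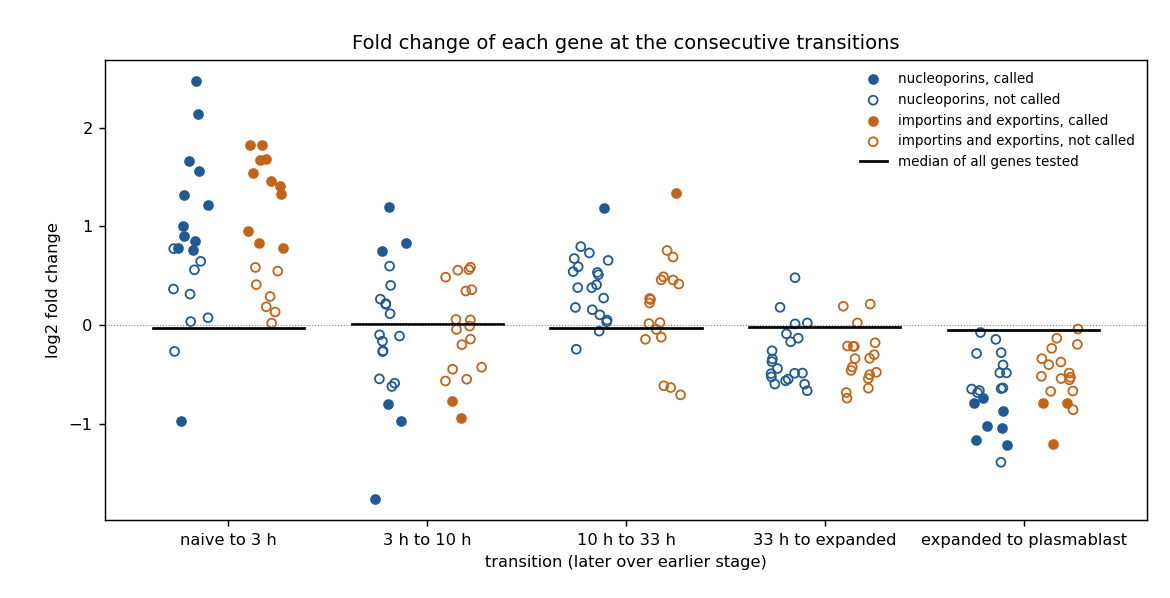
Log2 fold change of each tested member at the 5 consecutive transitions, with nucleoporins in blue and transport receptors in orange, filled where glmTreat called the change, and a black line at the median of all genes tested. The points lie mostly above the line at the first transition and all below 0 at the last.

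From naive cells to plasmablasts, 9 members rose and 3 fell out of 38, where 26.6% of all genes tested rose and 23.4% fell (50.0% in all). The F-test called 19 members up and 12 down (38.2% and 35.9% of all genes). The median log2 fold change was 0.17 in nucleoporins and 0.39 in receptors, against 0.02 over all genes tested. Among nucleoporins, Nup85 rose by 1.33, Nup35 by 1.16, Nup37 by 1.03 and Nup43 by 0.77, and Nup160 fell by 0.77 on the log2 scale. Nup85, Nup37 and Nup43 are Y complex genes, as is Nup160.

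Among the receptors, Ipo11 rose by 1.05, Ipo7 by 0.99, Ipo5 by 0.82 and Xpo4 by 0.81 on the log2 scale, and the other calls were importin alphas. Kpna2 rose 6.14-fold (log2 fold change 2.62 ± 0.20 SE, adjusted p = 4.9e-07), Kpna4 fell 3.07-fold (-1.62 ± 0.11, adjusted p = 3.3e-07) and Kpna1 fell 1.89-fold (-0.92 ± 0.11, adjusted p = 0.0021). Of the 12 calls, 6 were kept under every alternative run, namely these 3 with Nup85, Nup35 and Ipo7. Library size alone lowered the median of all genes by 0.28 and gave 4 members up and 8 down, with a members' median of -0.06. Single libraries ended the calls of Ipo5 (naive replicate 1, 0.75, edgeR adjusted p = 0.057), Xpo4 (plasmablast replicate 1, 0.76, 0.052), Nup160 (naive replicate 2, -0.71, 0.10, or plasmablast replicate 1, -0.72, 0.11), Nup37 (naive replicate 1, 0.98, 0.072, or plasmablast replicate 2, 0.96, 0.076) and Nup43 (naive replicate 1, 0.71, 0.13, plasmablast replicate 1, 0.77, 0.076, or plasmablast replicate 2, 0.80, 0.055).

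The importin alphas, which are alternative adaptors for the same importin beta, changed their order over the series. Kpna2 measured 5.25 and 5.73 RPKM (naive), 15.6 and 19.2 (3 h), 12.8 and 10.8 (10 h), 22.7 and 36.9 (33 h), 34.4 and 34.7 (expanded) and 33.2 and 34.0 (plasmablast). It was the lowest of the 5 expressed genes in naive cells and the highest in plasmablasts. Kpna4 measured 43.3 and 45.8 RPKM (naive), 83.8 and 69.5 (3 h), 58.4 and 55.8 (10 h), 52.7 and 50.8 (33 h), 34.8 and 31.8 (expanded) and 15.7 and 13.4 (plasmablast). Both were lower at 10 h than at 3 h, and from 10 h to plasmablasts the mean of Kpna4 was lower at each step.

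As shares of the summed importin alpha RPKM, Kpna2 made up 4.9% and 5.16% in the naive libraries, 13.3% and 20.1% (33 h), 25.8% and 26.4% (expanded) and 34.4% and 35.6% (plasmablast). Kpna4 went from 40.5% and 41.3% to 16.2% and 14.0%, and Kpna1 from 25.6% and 24.8% to 15.01% and 15.2%. Kpna3 made up between 18.9% and 31.1% and Kpna6 between 8.95% and 12.0% of the sum in all 12 libraries. These shares do not depend on the scaling between libraries. The summed level itself was 109 ± 2.8 RPKM in naive cells, 256 ± 26.8 at 3 h and 96.1 ± 0.735 in plasmablasts (mean ± SD, n = 2). With TMM the first and the last stage thus had near-equal totals of a different makeup. These totals do depend on the scaling, and on library size alone they were 95.1 RPKM (naive) and 69.6 RPKM (plasmablast). The annotation also holds a pseudogene, Kpna2-ps, which has no row among the genes counted here, and how reads that fit both were counted is not given in the sources used here.

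**Figure D4:**
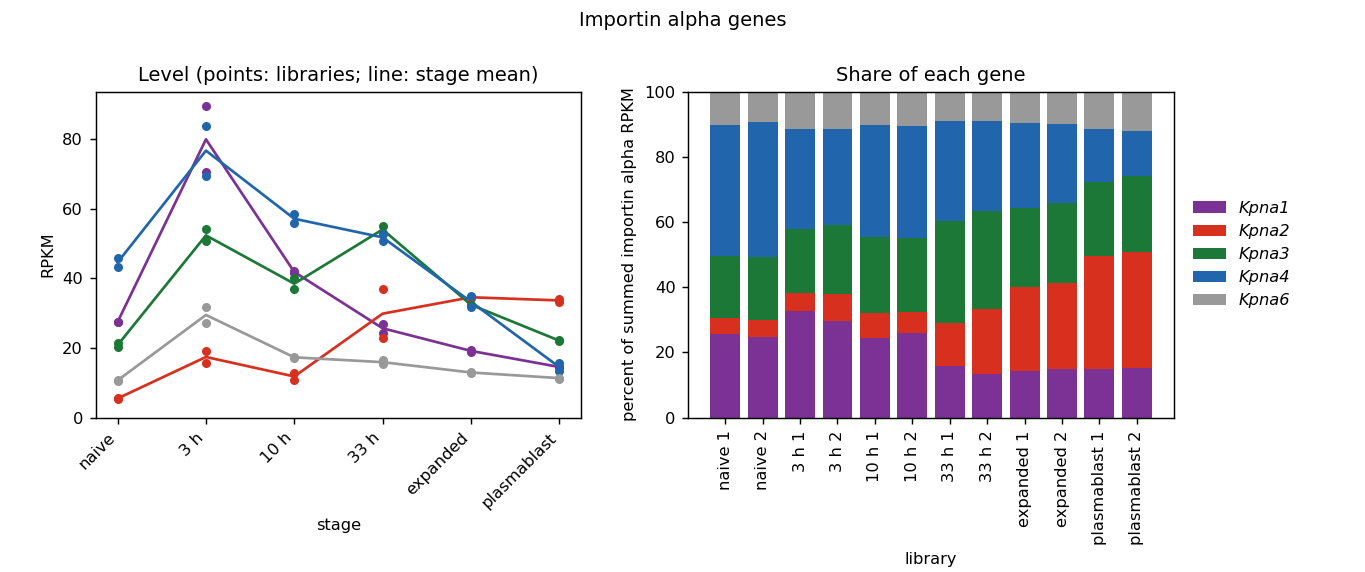
Left, RPKM of 5 importin alpha genes by stage, with points for libraries and lines through stage means. Right, the percent of their summed RPKM that each gene made up in each of the 12 libraries, where the Kpna2 band widens from 4.9% and 5.16% in naive cells to 34.4% and 35.6% in plasmablasts as the Kpna4 band narrows.

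The list of other genes of the pathway held 38 further tested genes with pore components whose symbols fall outside the rule, regulators of Ran, transportins and factors of mRNA export. By 3 h 22 of them rose and 1 fell, where 21.0% of all genes tested rose and 24.3% fell. Alyref, an mRNA export adaptor, was at 2.44 and Rcc1, the exchange factor of Ran, at 2.39. Rangap1, the GTPase activator of Ran, was at 1.84 and Ranbp1, a Ran binding protein, at 1.65. From 3 to 10 h 4 genes of the list rose and 4 fell, where 17.4% of all genes tested rose and 13.4% fell. Rangrf was at 3.17, Aaas at 1.91, Mad1l1 at 1.33 and Ranbp2 at -1.09. From 10 to 33 h, where 10.1% of all genes tested rose and 4.45% fell, 1 gene of the list was called. This was Ndc1, a membrane nucleoporin, which rose by 1.18 on the log2 scale. Of the list 18 of 38 genes had a value above 0 there, with 9 up and 5 down by the F-test. Of the members 30 of 38 lay above 0, with 22 up and 4 down. The F-test called 23.2% of all genes up and 22.2% down, and the difference between list and members was not tested. From 33 h to expanded B cells glmTreat called 0 genes of the list, and the F-test called 2 up and 6 down. Over all genes tested glmTreat called 10.6%, and the F-test called 18.5% up and 21.2% down.

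From expanded B cells to plasmablasts 2 genes of the list rose and 9 fell, where 13.9% of all genes tested rose and 12.2% fell. Nutf2, the importer of Ran, had a log2 fold change of -1.35, Ran of -1.25, Rcc1 of -1.20 and the transportin Tnpo1 of -1.09. The 2 that rose were Senp2, a SUMO protease at the pore, and Sec13, which serves both the Y complex and the coat of vesicles that leave the endoplasmic reticulum, at 0.90 and 0.88. From naive cells to plasmablasts 12 rose and 0 fell, where 26.6% of all genes tested rose and 23.4% fell. Of the members 9 rose and 3 fell, and this difference was not tested. In all 31.6% of the list and 31.6% of the members were called, against 50.0% of all genes tested. Ndc1 was at 2.38, Sec13 at 2.16 and Rcc1 at 1.53.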

How the data were processed

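RNA was extracted from 6 sorted stages in biological duplicate, and polyA libraries were made with a kit that does not mark strand. The authors aligned the reads to mm10 and deposited whole-number counts per gene, made with featureCounts and its inbuilt Entrez annotation; settings for strand and multi-mapping reads are not given in the sources used here. Genes that matched no annotation entry, genes of the X and Y chromosomes, mitochondrial and ribosomal RNA genes and variable immunoglobulin segments were removed (23699 of 27179 genes left). Counts were filtered with filterByExpr (12750 genes left), scaled with TMM and fitted over all 12 libraries by robust quasi-likelihood in edgeR 4.0.16 (R 4.3.3). Each comparison used glmTreat with a fold change of 1.5 and an adjusted p of 0.05 over all genes tested. With 2 libraries a stage, an exact permutation test cannot go below p = 0.333, so p-values rest on the pooled spread of these models. RPKM was computed from the counts. The floor of 3 counts covers counting error only. Alternatives were an F-test, DESeq2 1.42.0, other scalings and filters, a fit of the 4 libraries compared, a replicate block and leaving out each library. The fitting code was tested on simulated data. Named were each called member, at most 12 a direction and comparison by size, all libraries of the member of each class with the largest range, and members at the floor. Other members given with values were chosen after those were seen. The members and lists were chosen with earlier results of these data known.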

Additional observations from a re-analysis of the deposited data

How the results depend on the processing

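No called direction reversed among the 770 values of named calls under the alternatives run, and 29 of 55 named calls were kept under each of them. The counts of members called that moved by more than 1.5 times were as follows. The F-test without a fold-change threshold called 24 (3 h to 10 h), 26 (10 h to 33 h), 20 (33 h to expanded), 32 (expanded to plasmablast) and 31 (naive to plasmablast) members, against 8, 2, 0, 10 and 12 with glmTreat. From 3 h to 10 h DESeq2's Wald test called 3 members and the fit of the 4 libraries compared called 2. From expanded to plasmablast DESeq2 called 4 and library size alone 26. Leaving out 1 library gave 21 to 24 (naive to 3 h), 2 to 10 (3 h to 10 h), 2 (10 h to 33 h), 0 (33 h to expanded), 4 to 7 (expanded to plasmablast) and 9 to 11 (naive to plasmablast) members, where a stage left with 1 library was assumed to vary like the others. With the replicate number as a block the counts were 23, 8, 2, 0, 11 and 12. Same-numbered libraries showed little common deviation (Pearson r from -0.139 to 0.084 between stages), and the main fit did not use the numbers. Whether such libraries share mice or cultures cannot be told from this, because a shared source need not leave a common deviation. The spread between the 3 h libraries and the 2 libraries a stage limit what could be called near the fold-change threshold.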
